A study of Mus musculus with 6 samples.

Results

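The killing machinery of lymphocytes was followed here through 7 of the 32285 genes of the count tables, found by their symbols: the granzyme genes Gzma, Gzmb and Gzmk, the perforin gene Prf1, Nkg7, the chemokine gene Ccl5 and the Fas ligand gene Fasl. Single-cell RNA-Seq (scRNA-Seq) libraries had been made from the right lungs of 6 male mice that carried exons 2 and 3 of human CTLA4 in place of the mouse exons (genotype hCTLA4, C57BL/6 background). Their stated age was 12 weeks, and the lungs were taken at the end of the treatments below. All 6 mice had received 2 oropharyngeal doses of bleomycin, a DNA-damaging drug that injures the lung and leaves fibrosis, at 1.25 U/kg and 2 weeks apart. From day 21 after the second dose, 3 mice were given an IgG1 isotype antibody and 3 were given ipilimumab, a monoclonal antibody against human CTLA4, at 5 mg/kg intraperitoneally, 2 times a week for 4.5 weeks. No mouse without bleomycin was part of the comparison, and right lungs alone were sampled, so the levels below describe injured lungs only. Each library came from 1 mouse. Apart from a setting without the low-count filter, the p-values of the treatment tests below measure the spread between 3 mice per group. Those of the cell type tests measure the spread of differences within the same 6 mice, both treatments together.

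Natural killer (NK) cells and CD8+ T cells kill target cells by contact. They store granzymes, which are serine proteases, in granules together with perforin, the pore-forming protein that lets granzymes enter the target. Nkg7 is a membrane protein of these granules, and Ccl5 is a chemokine that draws leukocytes to sites of inflammation. Fas ligand on the killer cell surface triggers death through the receptor Fas, without granules. Resting NK cells keep ready messenger RNA for granule proteins, while naive T cells, which express Ccr7 and Lef1, acquire most of these genes after activation. CTLA4 restrains T cell activation by competing with CD28 for its ligands.

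All 7 genes are protein coding. In the GENCODE annotation of GRCm38 (mm10), the build named in the processing notes, Gzma lies at chr13:113093825-113100981, minus strand, and Gzmk at chr13:113171608-113225908, minus strand, with 70626 bases between them. Gzmb lies at chr14:56258838-56262260, minus strand, Prf1 at chr10:61297833-61304680, plus strand, and Nkg7 at chr7:43437073-43438249, plus strand. Ccl5 lies at chr11:83525778-83530518, minus strand, and Fasl at chr1:161780689-161788495, minus strand. Promoter sequences of 6 of the 7 genes were matched in a RefSeq table (GRCm38.p6). They are shown for the granule genes, since the contrasts between cell types below turn on these. Each runs 5′ to 3′ in the direction of its gene and ends at the base before the RefSeq start or, for Prf1 and Nkg7, before the first annotated exon base. For Gzmk the RefSeq start lies inside the GENCODE span given above. Its window is therefore within that span and not before the 5′ end of the span.
Gzma (chr13:113100982-113101231, minus strand): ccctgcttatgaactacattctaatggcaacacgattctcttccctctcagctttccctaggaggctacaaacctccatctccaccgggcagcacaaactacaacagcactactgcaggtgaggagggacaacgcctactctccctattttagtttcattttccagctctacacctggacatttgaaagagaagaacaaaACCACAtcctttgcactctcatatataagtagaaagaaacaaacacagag
Gzmb (chr14:56262335-56262584, minus strand): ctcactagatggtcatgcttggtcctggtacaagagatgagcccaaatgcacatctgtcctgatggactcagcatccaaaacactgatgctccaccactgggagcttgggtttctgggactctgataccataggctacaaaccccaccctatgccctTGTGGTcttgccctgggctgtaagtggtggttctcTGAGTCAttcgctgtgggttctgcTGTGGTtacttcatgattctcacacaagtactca
Prf1 (chr10:61297586-61297832, plus strand): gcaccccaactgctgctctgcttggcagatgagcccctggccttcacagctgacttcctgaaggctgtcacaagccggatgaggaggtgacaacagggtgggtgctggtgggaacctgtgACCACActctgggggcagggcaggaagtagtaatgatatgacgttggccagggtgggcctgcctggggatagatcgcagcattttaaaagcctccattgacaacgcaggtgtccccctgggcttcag
Nkg7 (chr7:43436888-43437072, plus strand): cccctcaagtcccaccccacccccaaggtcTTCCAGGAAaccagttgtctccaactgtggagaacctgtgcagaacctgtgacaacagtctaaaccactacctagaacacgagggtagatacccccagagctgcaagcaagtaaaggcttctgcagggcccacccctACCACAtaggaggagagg
Gzmk (chr13:113180966-113181215, minus strand): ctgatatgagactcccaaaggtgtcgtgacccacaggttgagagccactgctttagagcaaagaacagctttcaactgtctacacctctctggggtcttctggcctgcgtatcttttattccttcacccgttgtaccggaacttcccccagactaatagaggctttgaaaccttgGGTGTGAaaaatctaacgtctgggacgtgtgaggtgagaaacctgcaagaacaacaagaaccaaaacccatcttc
Capitals mark the letters of 4 motifs searched on both strands in the 250 bases before the start. The RUNX letters TGTGGT, or ACCACA where they lie on the opposite strand, were found at 50 bases before the start of Gzma, at 93 and 34 bases before that of Gzmb, at 130 bases in Prf1 and at 83 bases in Nkg7. These 4 of 6 promoters compare with 14.0% of the 32851 promoters in the table. The T-box letters GGTGTGA were found 75 bases before the RefSeq start of Gzmk and 13 bases before that of Nkg7, against 3.3% of all promoters. The Nkg7 match lies in the stretch left out above because it is annotated as exon. The AP-1 letters TGANTCA were found once, 58 bases before the start of Gzmb (6.7% of all promoters), and the STAT letters TTCNNNGAA once, 220 bases before that of Nkg7 (7.0%). The ETS letters CCGGAAGT (2.9%) and the TATA box letters TATAAA (12.4%) were in none of the 6 windows. A match is a string of letters only, and binding was not measured.

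The 6 libraries held 37666042 to 48612412 unique molecular identifiers (UMIs, each counted as 1 RNA molecule), and 23898 barcodes were used as cells, 3243 to 4293 per mouse, with medians of 5952 to 7918 UMIs. The library of ipilimumab mouse 1 stood apart, with 22056 barcodes of at least 100 UMIs against 4834 to 6230 in the other 5. Any 2 libraries shared 0 to 8 cell barcodes. Cell types were assigned from marker genes that did not include the 7 genes, and each level is the UMIs of a gene per 1000000 UMIs (CPM) summed over the cells of a type in a mouse. UMIs counted at the 3′ end carry no length scaling, so levels are compared within a gene and between cells. The NK gate required markers such as Ncr1 and Klrb1c, which ranged from 309 to 475 CPM and from 405 to 495 CPM over the mice, with no UMI of Cd3e or Cd3d. The Cd8 T gate required T cell receptor complex genes and a UMI of Cd8a or Cd8b1 with none of Cd4, and its cells had no UMI of Ncr1.

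Granzyme A was highest in NK cells. Gzma stood at 8222, 8499.6 and 6996 CPM in the IgG1 mice and 7986, 9442 and 8019 CPM in the ipilimumab mice in NK cells (1392 cells). In Cd8 T cells (1973 cells) Gzma stood at 464, 497 and 150.5 CPM in the IgG1 mice and 629, 323 and 124 CPM in the ipilimumab mice. Every NK value lay above every Cd8 T value. Within Cd8 T cells, the 110 cells without a UMI of Ccr7 or Lef1 had Gzma at a mean of 1671 ± 1024 CPM (SD, n = 6 mice) against 312 ± 176 CPM in the 1863 cells with either, and the ranges of the 6 mice did not overlap. Cd4 T cells (1612 cells) had Gzma at 1.56 to 92.2 CPM.

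Granzyme B followed the same order of cell types. Gzmb stood at 644, 832 and 589.7 CPM in the IgG1 mice and 712, 807 and 785 CPM in the ipilimumab mice in NK cells. Among Cd8 T cells Gzmb stood at 74.1, 141 and 37.8 CPM in the IgG1 mice and 121, 60.4 and 28.1 CPM in the ipilimumab mice, so the lowest NK mouse was above the highest Cd8 T mouse. Cd8 T cells without Ccr7 or Lef1 had Gzmb at a mean of 323 ± 134 CPM (SD, n = 6), below the range of NK cells and above that of Cd8 T cells with either gene (22.4 to 136 CPM). One gate outside the lymphocytes carried Gzmb too. The 10 basophils, gated by Mcpt8, Cpa3 and 3 other genes, held 76 Gzmb UMIs in 5 cells, with no UMI of Gzma or Prf1. Over the 4 mice with basophils Gzmb was 7343, 777, 169 and 403 CPM, from 1, 3, 1 and 5 cells. The basophils also held 42 UMIs of the near copy Gzmc, so how reads divide between these granzyme paralogs is uncertain there.

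Granzyme K ran the other way. Gzmk was nearly absent from NK cells, with 26 UMIs in all and values of 0, 6.89 and 0.674 CPM in the IgG1 mice and 4.91, 1.91 and 1.96 CPM in the ipilimumab mice. Gzmk in Cd8 T cells stood at 16.4, 31.1 and 16.8 CPM in the IgG1 mice and 13.2, 23.8 and 7.31 CPM in the ipilimumab mice. Each Cd8 T mouse exceeded each NK mouse. Gzmk was highest in Cd8 T cells without Ccr7 or Lef1, at 21.5, 86.6 and 126 CPM (lowest, median and highest of 6 mice), and next in Cd4 T cells without Ccr7 or Lef1, at 7.88, 16.8 and 42.7 CPM. These ranges overlapped. With 629 UMIs over all used cells, Gzmk was the sparsest of the 7 genes.

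Perforin showed a gap between NK and Cd8 T cells like that of granzyme A. Prf1 stood at 888, 797 and 719.8 CPM in the IgG1 mice and 850.3, 911 and 728 CPM in the ipilimumab mice in NK cells. Among Cd8 T cells Prf1 stood at 38.8, 36.7 and 32.3 CPM in the IgG1 mice and 34.6, 34.9 and 29.8 CPM in the ipilimumab mice, a narrow band far below. Cd8 T cells without Ccr7 or Lef1 had Prf1 at 109 ± 35.6 CPM (SD, n = 6), and this range (65 to 159 CPM) did not meet that of NK cells or that of Cd8 T cells with either gene (28.1 to 35.1 CPM). Cd4 T cells had 4.82 to 10.1 CPM of Prf1.

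For Nkg7 and Ccl5 the top gates of NK and T cells overlapped. Nkg7 stood at 1989.9, 2039 and 1686 CPM in the IgG1 mice and 2019.9, 2374 and 1839 CPM in the ipilimumab mice in NK cells. Cd8 T cells without Ccr7 or Lef1 had Nkg7 at 1526, 1942 and 1364 CPM in the IgG1 mice and 1809, 1202 and 1257 CPM in the ipilimumab mice, and the ranges of these top gates overlapped. Nkg7 in Cd8 T cells with Ccr7 or Lef1 ranged over 279 to 468 CPM. For Ccl5 the order of the top gates turned: Cd8 T cells without Ccr7 or Lef1 had 14522, 23094 and 12496 CPM in the IgG1 mice and 20668, 15454 and 16559.9 CPM in the ipilimumab mice, while NK cells had 10428, 12476 and 10651 CPM in the IgG1 mice and 12583, 14722 and 13794 CPM in the ipilimumab mice. The means of Ccl5 were 17132 ± 3987 CPM and 12442 ± 1692 CPM (SD, n = 6), and the ranges overlapped. T cells with a UMI of Trdc, the constant region gene of the delta chain of gamma delta T cells, and with none of Trac, Cd4, Cd8a or Cd8b1, came next at 1029, 2744 and 5178 CPM (lowest, median and highest). The gate of Cd8 T cells without Ccr7 or Lef1 was small, with 25, 7 and 19 cells in the IgG1 mice and 20, 23 and 16 in the ipilimumab mice.

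Fas ligand was shared more widely among T cells. Fasl stood at 311, 301 and 288 CPM in the IgG1 mice and 277, 282 and 320.4 CPM in the ipilimumab mice in NK cells, with little spread between mice. In Cd8 T cells Fasl stood at 56.2, 38 and 33.8 CPM in the IgG1 mice and 55.4, 37.5 and 30.7 CPM in the ipilimumab mice, and in Cd4 T cells at 32.7, 26.5 and 23 CPM in the IgG1 mice and 32.3, 37.7 and 47.9 CPM in the ipilimumab mice. Cd8 and Cd4 T cells overlapped. Cells without Ccr7 or Lef1 were higher in both lineages, with 102 to 242 CPM among Cd8 T cells against 28.4 to 52.1 CPM in those with either gene, and 58.7 to 94.5 CPM among Cd4 T cells against 21 to 49.1 CPM. None of these pairs of ranges overlapped. The 97 Cd4 T cells with a Foxp3 UMI, the mark of regulatory T cells, had Fasl at 0 to 9.08 CPM.

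**Figure D1:**
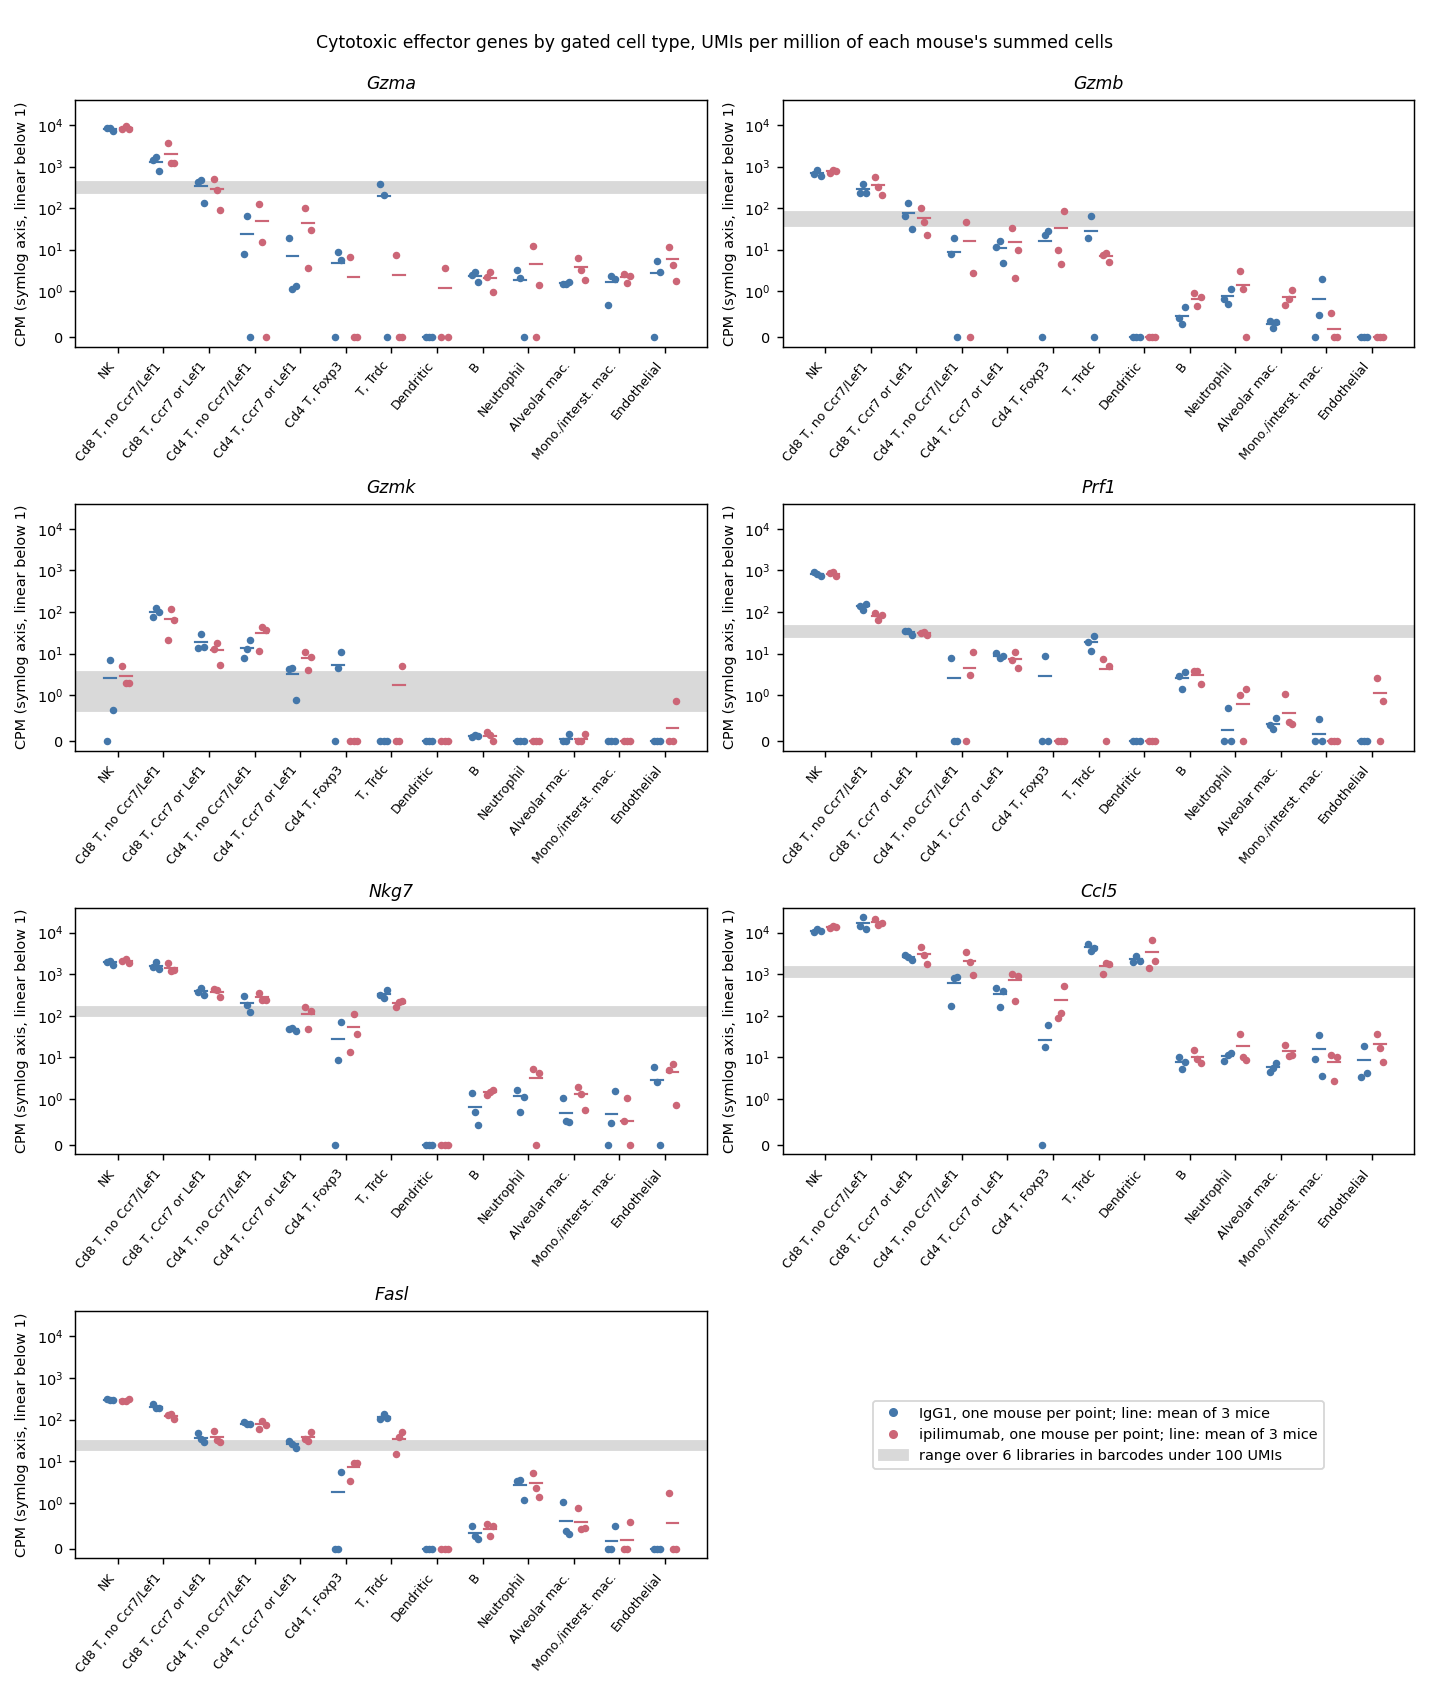
Level of each of the 7 genes (CPM, log axis that is linear below 1) in 13 cell gates, with 1 point per mouse, lines at the mean of 3 mice, and a grey band for the range in barcodes under 100 UMIs. NK cells hold the highest points for Gzma, Gzmb, Prf1 and Fasl, Cd8 T cells without Ccr7 or Lef1 are highest on average for Gzmk and Ccl5, and B cells, neutrophils, macrophages and endothelial cells lie near the bottom.

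The source of each transcript followed from these levels and from how many cells each gate held. NK cells, at 4.2 to 7.91% of the cells of a mouse, held 81.7% of the 94600 Gzma UMIs, 80.05% of the 9537 Prf1 UMIs and 67.9% of the 10160 Gzmb UMIs in used cells. They held 56.6% of the 33257 Nkg7 UMIs, 53.8% of the 5134 Fasl UMIs and 49.98% of the 235964 Ccl5 UMIs, but 4.13% of the Gzmk UMIs. The NK share of Gzma ran from 65.8 to 87.6% over the mice. Cd8 T cells held 59.8% of Gzmk, 29.3% of Ccl5 and 26.3% of Nkg7 UMIs, against 7.71% of Gzma and 7.59% of Prf1 UMIs. Although low per cell, the many Cd8 T cells with Ccr7 or Lef1 held 23.8% of all Ccl5 UMIs, and the few without either held 5.52%. Cd4 T cells held 17.3% of Gzmk and 9.95% of Fasl UMIs. Cells that met no gate held 5.25 to 7.79% of the UMIs of each gene.

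**Figure D2:**
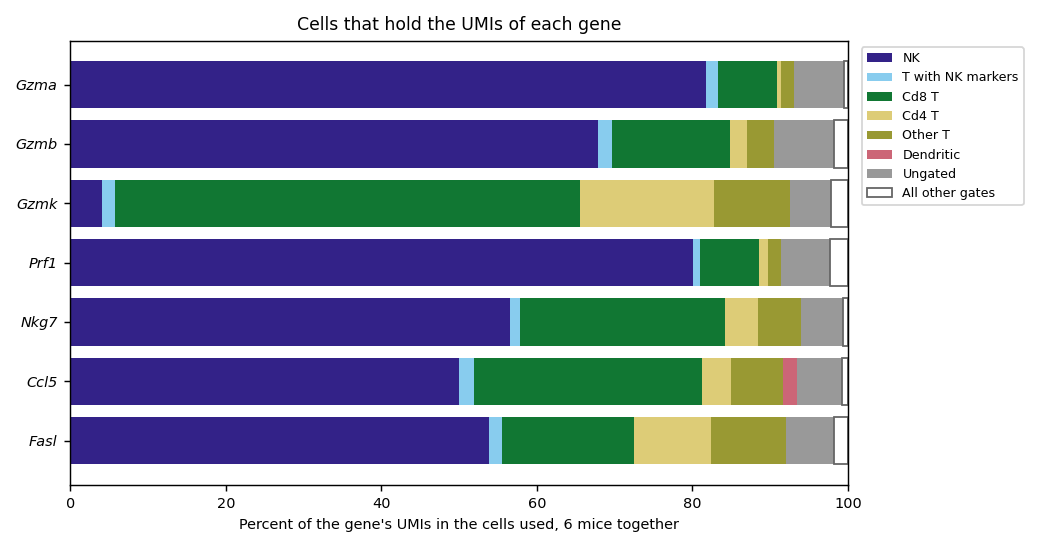
Share of the UMIs of each gene (percent of the UMIs in used cells of all 6 mice) by cell gate, as stacked horizontal bars. NK cells make up 81.7% of Gzma and 4.13% of Gzmk UMIs, and Cd8 T cells make up 59.8% of Gzmk UMIs.

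Free RNA in the cell suspension sets a floor under these values. Barcodes with under 100 UMIs, taken as ambient RNA, had Gzma at 234 to 426 CPM over the 6 libraries, Gzmb at 38 to 79.4 CPM, Prf1 at 24.7 to 46.3 CPM, Nkg7 at 101 to 163 CPM, Ccl5 at 835 to 1514 CPM, Fasl at 18.8 to 30.3 CPM and Gzmk at 0.664 to 3.51 CPM. Such barcodes averaged 22.7 to 36.9 UMIs at the ranks used, a small part of the UMIs of a cell. Scaled to the UMIs of a B cell, which should lack these genes, this predicted 1.49 CPM of Gzma and 4.90 CPM of Ccl5, and the 8338 B cells had means of 2.21 and 9.08 CPM. For NK cells the same scaling predicted 1.40 CPM of Gzma and 4.6 CPM of Ccl5. B cells, neutrophils, macrophages, endothelial and epithelial cells had gate means of 1.95 to 5.61 CPM for Gzma, 0 to 1.15 CPM for Gzmb, 0.0795 to 2.87 CPM for Prf1 and 0.182 to 2.8 CPM for Fasl. Neutrophils had Fasl at 2.8 ± 1.5 CPM (SD, n = 6) against 0.161 CPM predicted, above the prediction in 6 of 6 mice. Prf1 in B cells, at 2.87 ± 1.02 CPM against 0.165 CPM predicted, was also above it in 6 of 6 mice. Such an excess was common and not particular to these cases. It was found in 6 of 6 mice for Gzmb, Ccl5 and Fasl in B cells too. The same held for Gzma, Gzmb, Prf1, Nkg7 and Ccl5 in alveolar macrophages. The 463 mesenchymal cells had Gzma at 124 CPM in IgG1 mouse 3, from 4 of 80 cells, and at 0 to 32 CPM in the other libraries. In the library of ipilimumab mouse 1, the used cells held 62.7 to 72.3% of the UMIs of the 7 genes, against 81.7 to 95.2% in the other libraries.

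Dendritic cells were the one myeloid gate with abundant Ccl5. Ccl5 stood at 1981, 2759 and 2032 CPM in the IgG1 mice and 1390.1, 6719 and 2109 CPM in the ipilimumab mice in 70 dendritic cells, gated by Flt3, Zbtb46 and 3 other genes. The other 6 genes together gave 1 UMI there, of Gzma. The Ccl5 UMIs were uneven within the gate: 34 of the 70 cells held all 4270, with a median of 68.5 UMIs among those 34. A UMI of Ccr7, the receptor that guides migrating dendritic cells to lymph nodes, was found in 32 of these 34 cells and in 3 of the 36 without Ccl5. Clec9a and Xcr1, genes of cross-presenting dendritic cells, were found in 7 and 2 of the 34 and in 30 and 17 of the 36. Cd209a was found in 3 of the 34 and 18 of the 36, and Zbtb46 in 34 of the 34 and 19 of the 36. Clec9a, Xcr1, Cd209a, Zbtb46 and Flt3 are the markers of the gate. A cell entered with UMIs of at least 2 of them, so these shares depend on the gating. Median UMIs were 18165 and 19293 per cell.

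The test of cell types compared UMI sums per mouse within the same 6 libraries, by the quasi-likelihood test of edgeR with the mouse as a block and Benjamini-Hochberg adjustment over all genes tested. A gene was called where the adjusted p was under 0.05 and the log2 fold change exceeded 0.3 in size. Between NK and Cd8 T cells 49.9% of 9737 genes were called, 24.8% higher and 25.0% lower in NK cells, so a call by itself was common. All 7 genes were called, 6 higher and 1 lower. The log2 fold change ± SE was 4.50 ± 0.22 (adjusted p = 2.19e-12) for Gzma and 4.38 ± 0.0633 (adjusted p = 1.49e-19) for Prf1. It was 3.19 ± 0.19 (adjusted p = 3.79e-11) for Gzmb and 2.66 ± 0.10 (adjusted p = 6.34e-14) for Fasl. The smaller differences were 2.07 ± 0.0609 (adjusted p = 1.38e-15) for Nkg7 and 1.76 ± 0.11 (adjusted p = 7.26e-11) for Ccl5. Gzmk was lower in NK cells, at -2.93 ± 0.32 (adjusted p = 2.35e-07). The median over the 7 genes was 2.66, against -0.02 over all genes tested.

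Partners of the killing machinery differed between NK and Cd8 T cells gene by gene. Of 9 genes of granule assembly and release, 5 were higher in NK cells, among them Stx11 (2.13) and Unc13d (0.64), both needed for granule fusion, Ctsw (1.33), Ctsc (0.48), whose protease activates granzymes, and Rab27a (0.38). Lyst, a regulator of lysosomal granules, was lower (-0.92). Serpinb9, the inhibitor that guards the killer cell from granzyme B, was higher by 3.66 and Serpinb6b by 2.89, and 3 of 4 inhibitors were called higher. The third, Serpinb9b, stood at 66, 88.6 and 103 CPM (lowest, median and highest) in NK cells and had 3 UMIs in Cd8 T cells, so no fold is given. Of 6 cytokine genes tested, Ccl3 (5.46), Xcl1 (4.37), Ccl4 (3.57) and Ifng (2.03) were higher in NK cells, while Tnfsf10 (-1.94) and Tnf (-1.5) were lower. Of 8 transcription factors, 6 were higher and none lower, including Eomes (3.01) and Tbx21 (2.56), the T-box factors of effector lymphocytes, with Irf8 (7.79), Id2 (2.38), Prdm1 (2.30) and Zeb2 (2.12). Of 2 receptor genes tested, 1 was higher in NK cells, and Fas, the receptor of Fas ligand, was lower (-2.52). Of 6 naive T cell genes, 1 was higher in NK cells and 5 were lower, namely Ccr7 (-6.24), Lef1 (-2.81), Il7r (-5.74), Tcf7 (-3.02) and S1pr1 (-3.61). Gzmm, the other granzyme gene with enough UMIs for the test, was lower in NK cells (-1.20). These values are log2 fold changes from the same edgeR fit.

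Most of the 7 genes were higher in Cd8 than in Cd4 T cells. Here 24.0% of 9823 genes were called, 10.8% higher and 13.2% lower in Cd8 T cells, and 6 of the 7 genes were higher. The log2 fold change in edgeR was 4.04 ± 0.33 (adjusted p = 8.02e-08) for Gzma, 2.74 ± 0.21 (adjusted p = 4.00e-08) for Ccl5 and 2.40 ± 0.25 (adjusted p = 1.34e-06) for Gzmb. Nkg7 differed by 2.32 ± 0.18 (adjusted p = 5.35e-08), Prf1 by 2.27 ± 0.13 (adjusted p = 1.84e-09) and Gzmk by 1.32 ± 0.30 (adjusted p = 0.00286). Fasl, at 0.35 ± 0.15 (adjusted p = 0.0824), was not called, and its 95% interval ran from 0.04 to 0.67. The median over the 7 genes was 2.32, against 0.01 over all genes. Of the other lists, Ccl4 (4.73), Eomes (3.33), Gzmm (2.66) and Ctsw (2.23) were higher in Cd8 T cells, with 3 of 9 granule, 1 of 3 inhibitor, 3 of 6 cytokine and 4 of 8 transcription factor genes called higher. Stx11 (-1.52), Rab27a (-0.53) and Srgn (-0.43), the granule proteoglycan, were lower, as was Prdm1 (-0.93).

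Cd8 T cells without Ccr7 or Lef1 were compared with those that had either, as naive T cells express both genes. The former had a lower median depth (6149 against 10077 UMIs per cell), and shallow cells can miss a UMI of either gene. In edgeR, 14.7% of 8582 genes were called, 6.36% higher and 8.33% lower, and all 7 genes were higher. The largest log2 fold change was that of Ccl5, 2.39 ± 0.10 (adjusted p = 5.16e-20), followed by Gzma with 2.25 ± 0.16 (adjusted p = 1.75e-13), Gzmk with 2.22 ± 0.31 (adjusted p = 8.19e-07) and Gzmb with 2.18 ± 0.19 (adjusted p = 1.48e-11). Fasl differed by 1.89 ± 0.22 (adjusted p = 1.00e-08), Nkg7 by 1.75 ± 0.11 (adjusted p = 8.15e-15) and Prf1 by 1.52 ± 0.24 (adjusted p = 8.94e-06). The median over the 7 genes was 2.18, against -0.08 over all genes. Cytokine genes were higher with them (5 of 6), with Ccl3 at 2.82, Ccl4 at 2.72 and Ifng at 2.68. So were 6 of 8 transcription factors, with Zeb2 at 3.07 and Tbx21 at 2.37, and the inhibitors Serpinb9 (1.67) and Serpinb6b (1.51). The naive T cell genes Il7r (-2.35), Tcf7 (-2.15) and S1pr1 (-1.39), which did not define the gate, were lower. Of the granule genes, Stx11 (1.53) and Rab27a (1.08) were higher and Lyst (-0.45) was lower. IgG1 mouse 2 had 7 of the cells without Ccr7 or Lef1, and all 7 calls were made without it too.

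**Figure D3:**
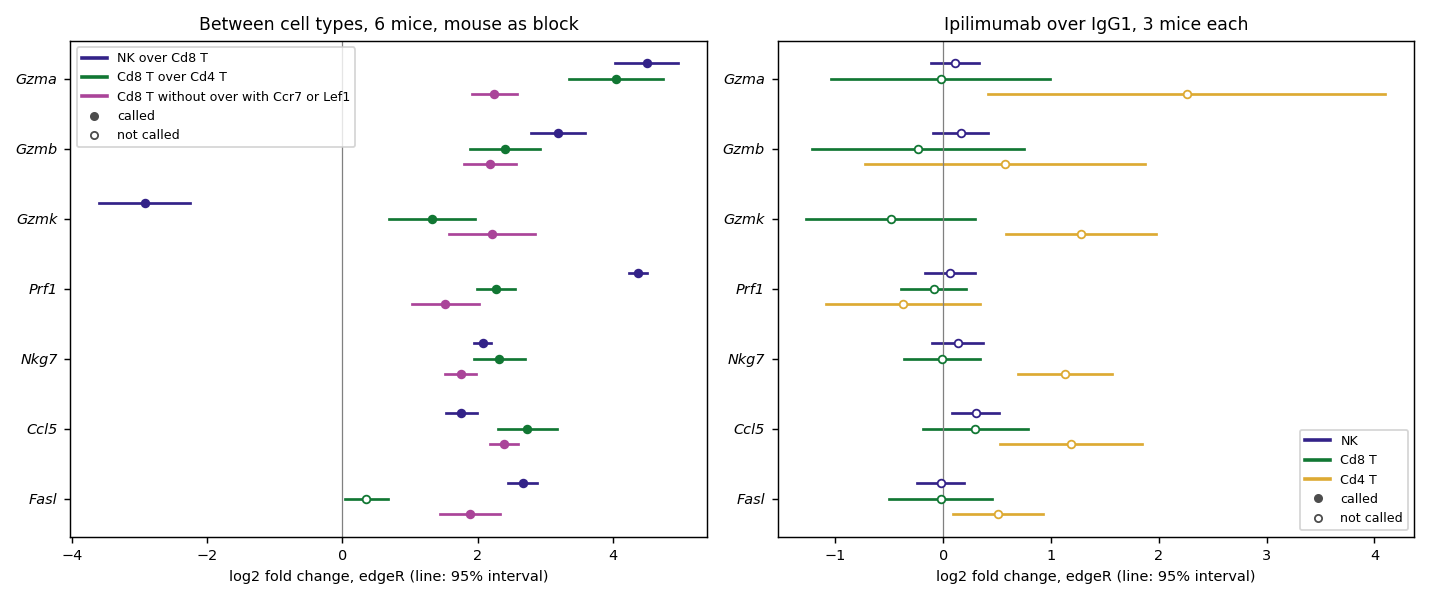
Log2 fold change of each of the 7 genes in the edgeR fits, with 95% intervals, for the cell type contrasts (left) and ipilimumab over IgG1 (right), with filled points for called genes. The NK over Cd8 T values run from -2.93 (Gzmk) to 4.50 (Gzma), and the treatment values in NK and Cd8 T cells cluster near 0.

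Individual cells showed whether the genes came together. A UMI of Gzma was found in 98.5% of NK cells, Prf1 in 94.8%, Gzmb in 84.3%, Nkg7 in 99.4%, Ccl5 in 99.7%, Fasl in 80.7% and Gzmk in 1.51%. The shares in Cd8 T cells were 15% for Gzma, 24.2% for Prf1, 15.3% for Gzmb, 78.1% for Nkg7, 42.7% for Ccl5, 20.2% for Fasl and 8.92% for Gzmk. B cells, at a median of 5641 UMIs against 6036 in NK and 9886 in Cd8 T cells, gave 1.12% for Gzma, 1.6% for Prf1, 4.56% for Ccl5 and 0.072% for Gzmk. Because depth differed, each cell with at least 2000 UMIs was also thinned to 2000 UMIs, and shallower cells were left out of the thinned shares. Thinned, Prf1 was found in 73.8% of NK cells in the IgG1 mice and 76% in the ipilimumab mice, and in 6.92% of Cd8 T cells in the IgG1 mice and 6.37% in the ipilimumab mice (means of 3 mice). Thinned Nkg7 was found in 42.1% of Cd8 T cells in the IgG1 mice and 45% in the ipilimumab mice.

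NK cells were near uniform in this set of genes: 920 of 1392 cells (66.1%) had UMIs of 6 of the 7 genes and 373 (26.8%) had 5. Cd8 T cells were spread out, with 0 genes in 309 of 1973 cells (15.7%), 1 gene in 688 (34.9%) and 5 or more in 258 (13.1%). Of Cd4 T cells 976 of 1612 (60.5%) had none. The overlap of genes in single cells also differed by cell type. In NK cells 1170 of the 1173 cells with Gzmb also had Gzma and 1133 had Prf1. Nearly all NK cells had these genes, and Prf1 was also in 187 of the 219 without Gzmb (85.4%). In Cd8 T cells 203 of the 302 with Gzmb had Gzma and 156 had Prf1 (51.7%). There Prf1 was in 321 of the 1671 cells without Gzmb (19.2%). Gzmb was in 68.8% of the Cd8 T cells with Gzma and in 5.90% of those without it. The 176 Cd8 T cells with Gzmk had Nkg7 in 175, Ccl5 in 171, Gzmb in 119, Gzma in 99 and Prf1 in 90. Prf1 was found in 51.1% of Cd8 T cells with Gzmk and in 21.5% of the 1797 without it. Gzmk was found in 39.4% of Cd8 T cells with Gzmb and in 3.41% of those without it. For Gzma these shares were 33.6% and 4.59%. These are counts of cells at unequal depth, given as a description.

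**Figure D4:**
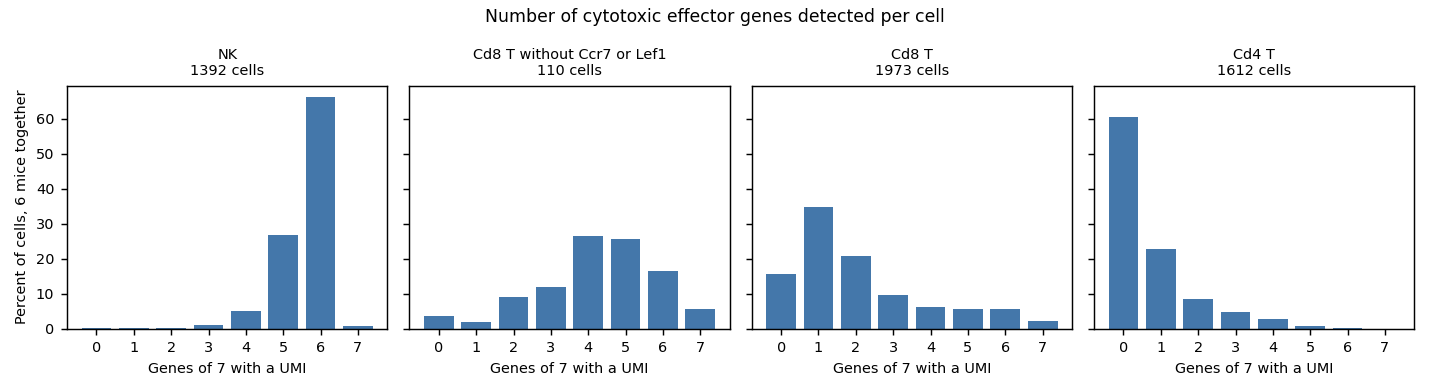
Percent of cells (y axis) with UMIs of 0 to 7 of the genes (x axis) in NK cells, Cd8 T cells without Ccr7 or Lef1, all Cd8 T cells and Cd4 T cells of the 6 mice together. NK cells peak at 6 genes, Cd8 T cells at 1 and Cd4 T cells at 0.

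The study set ipilimumab against the isotype to ask what releasing CTLA4 does in the injured lung. The NK gate held 4.52, 6.34 and 6.17% of cells in the IgG1 mice and 4.2, 7.91 and 6.02% in the ipilimumab mice (exact two-sided permutation test, p = 1). The Cd8 T gate held 8.06, 6.34 and 12.3% of cells in the IgG1 mice and 7.36, 8.54 and 7.88% in the ipilimumab mice (exact p = 0.8). Both gates overlapped between treatments. With 3 mice against 3, the smallest p of this test is 0.1. In sums over cells, fewer expressing cells and less RNA per cell cannot be told apart, so shares and UMIs per cell with a UMI are given beside the main sums for which groups did not overlap.

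In NK cells the treatment groups overlapped for 6 of the 7 genes in the values given above, with Ccl5 as the exception. For Gzma the exact p was 0.6, for Prf1 0.7, for Gzmb 0.4, for Nkg7 0.5 and for Fasl 0.7. Every ipilimumab mouse had more Ccl5 than the IgG1 mice 1 and 3, and the lowest of them (12583 CPM) lay just above IgG1 mouse 2 (12476 CPM), which gives exact p = 0.1, the smallest the design allows. The groups did not overlap for 10.1% of 10744 genes in NK cells, so 1 of 7 is close to that background. Ccl5 was found in nearly all NK cells of both groups, with 76.3 ± 7.46 UMIs per cell with a UMI in the IgG1 mice and 91.4 ± 6.17 in the ipilimumab mice. By edgeR, 0 of 8711 genes (0%) were called between treatments in NK cells, with 440 at an unadjusted p under 0.05 and 0 called by DESeq2. Ccl5 differed by 0.30 ± 0.10 (adjusted p = 0.907) on the log2 scale, and the other 5 genes tested by -0.02 to 0.16. The 95% interval for Gzma ran from -0.11 to 0.33 and that for Prf1 from -0.17 to 0.30. Gzmk had too few UMIs to be tested there.

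In Cd8 T cells the treatment groups overlapped for all 7 genes, where 9.39% of 12099 genes did not overlap. The spread between mice of 1 group was wide: Gzma ranged from 151 to 497 CPM among IgG1 mice and from 124 to 629 CPM among ipilimumab mice. By edgeR, 0 of 9994 genes (0%) were called, with 433 at an unadjusted p under 0.05 and 0 called by DESeq2. The log2 fold change was -0.02 ± 0.47 (adjusted p = 0.999) for Gzma, -0.23 ± 0.45 (adjusted p = 0.993) for Gzmb and -0.09 ± 0.14 (adjusted p = 0.993) for Prf1. Ccl5 differed by 0.30 ± 0.22 (adjusted p = 0.993) and Gzmk by -0.49 ± 0.36 (adjusted p = 0.993). The 95% interval of Gzma, -1.04 to 0.99 on the log2 scale, was wider than that of Prf1, -0.39 to 0.21. In all T cells 0 of 11927 genes (0%) were called, with 772 at an unadjusted p under 0.05 and 18 called by DESeq2. By edgeR, 37 genes were called without IgG1 mouse 2. The difference between the treatment effects in NK and Cd8 T cells was tested by an interaction term, and 0 of 10461 genes (0%) were called, with 461 at an unadjusted p under 0.05 and 0 by DESeq2. For Ccl5 that difference was 0.07 ± 0.22 (adjusted p = 1) and for Gzmb 0.40 ± 0.38 (adjusted p = 0.987).

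Among the 110 Cd8 T cells without Ccr7 or Lef1, perforin and Fas ligand were lower in every ipilimumab mouse. Prf1 stood at 141, 110.5 and 159 CPM in the IgG1 mice and 93.3, 65 and 83.8 CPM in the ipilimumab mice. Fasl stood at 242, 189 and 185 CPM in the IgG1 mice and 129, 135 and 102 CPM in the ipilimumab mice. Neither gene overlapped between groups (exact p = 0.1 for each), while the other 5 did, Gzma among them at 1452, 1673 and 762 CPM in the IgG1 mice and 3668, 1223 and 1247 CPM in the ipilimumab mice. This 2 of 7 compares with 9.57% of 5467 genes that did not overlap there. A UMI of Prf1 was found in 49.1 ± 17.1% of cells in the IgG1 mice and 44.1 ± 0.812% in the ipilimumab mice, with 2.17 ± 0.281 UMIs per cell with a UMI in the IgG1 mice and 1.31 ± 0.124 in the ipilimumab mice. For Fasl the values were 77.1 ± 7.48% of cells in the IgG1 mice and 53.2 ± 8.7% in the ipilimumab mice, with 2 ± 0 UMIs per cell with a UMI in the IgG1 mice and 1.66 ± 0.11 in the ipilimumab mice. The sums rest on 86 UMIs of Prf1 and 130 of Fasl.

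In Cd4 T cells the treatment groups separated for 3 of the 7 genes, Nkg7, Ccl5 and Gzmk. Nkg7 stood at 61.1, 54.8 and 49.5 CPM in the IgG1 mice and 155, 77.7 and 135 CPM in the ipilimumab mice. Ccl5 stood at 433, 191 and 386 CPM in the IgG1 mice and 1059.9, 443 and 848 CPM in the ipilimumab mice, and Gzmk at 4.33, 5.02 and 2.73 CPM in the IgG1 mice and 9.74, 8.82 and 11 CPM in the ipilimumab mice. The 3 ipilimumab mice were above the 3 IgG1 mice for each of these genes (exact p = 0.1), which makes 3 of 7 against 11.2% of 11671 genes that did not overlap. Gzma stood at 17.8, 6.39 and 1.56 CPM in the IgG1 mice and 92.2, 4.81 and 23.1 CPM in the ipilimumab mice, highest in ipilimumab mouse 1 and overlapping. Gzmb stood at 11.1, 17.4 and 6.24 CPM in the IgG1 mice and 31.6, 2.0 and 17.6 CPM in the ipilimumab mice, and Prf1 at 10.1, 7.31 and 7.41 CPM in the IgG1 mice and 5.91, 8.82 and 4.82 CPM in the ipilimumab mice, both overlapping. By edgeR, 0 of 9618 genes (0%) were called, with 692 at an unadjusted p under 0.05 and 20 called by DESeq2. By edgeR, 10 were called without ipilimumab mouse 1. Nkg7 differed by 1.13 ± 0.20 (adjusted p = 0.189), Ccl5 by 1.18 ± 0.30 (adjusted p = 0.42) and Gzmk by 1.28 ± 0.32 (adjusted p = 0.398). Nkg7 was called by DESeq2 (adjusted p = 6.05e-04) and by edgeR without ipilimumab mouse 2 (log2 fold change 1.35, adjusted p = 0.0158). Without ipilimumab mouse 1, whose library stood apart in its barcodes, the edgeR log2 fold change was 0.94 for Nkg7, 0.92 for Ccl5 and 1.30 for Gzmk, with none of the 3 called, and the remaining values still did not overlap. Gzma differed by 2.26 ± 0.84 (adjusted p = 0.618) and Fasl by 0.51 ± 0.19 (adjusted p = 0.62). The median over the 7 genes was 1.13, against -0.00010 over all genes.

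The share of cells with a UMI and the UMIs per such cell stand behind those sums. A UMI of Nkg7 was found in 11.5 ± 0.298% of cells in the IgG1 mice and 20.1 ± 6.4% in the ipilimumab mice, with 4.45 ± 0.0786 UMIs per cell with a UMI in the IgG1 mice and 5.71 ± 0.657 in the ipilimumab mice. For Ccl5 the values were 14.4 ± 4.81% of cells in the IgG1 mice and 21.1 ± 7.73% in the ipilimumab mice, with 21.8 ± 4.82 UMIs per cell with a UMI in the IgG1 mice and 34.6 ± 5.07 in the ipilimumab mice. Gzmk was found in 2.64 ± 0.785% of cells in the IgG1 mice and 4.02 ± 1.33% in the ipilimumab mice, with 1.45 ± 0.323 UMIs per cell with a UMI in the IgG1 mice and 2.41 ± 0.522 in the ipilimumab mice. Cd4 T cells without Ccr7, Lef1 or Foxp3 were 0.373, 0.522 and 0.586% of cells in the IgG1 mice and 0.603, 1.21 and 1.31% in the ipilimumab mice, which did not overlap (exact p = 0.1). Within those cells Ccl5 stood at 173, 825 and 831 CPM in the IgG1 mice and 3384, 1943 and 939.9 CPM in the ipilimumab mice, and Nkg7 at 291, 179 and 125 CPM in the IgG1 mice and 346, 238 and 239.7 CPM in the ipilimumab mice. Within Cd4 T cells with Ccr7 or Lef1, Nkg7 stood at 47.5, 49.8 and 42.9 CPM in the IgG1 mice and 159.6, 47.2 and 132 CPM in the ipilimumab mice, so ipilimumab mouse 2 lay among the IgG1 mice. The part of the cell mixture in the difference was not tested. Cd4 T cells with UMIs of 3 or more of the 7 genes made up 5.28, 6.17 and 5.88% in the IgG1 mice and 15.2, 5.3 and 10.3% in the ipilimumab mice (exact p = 0.3). Of the other lists, none of the genes tested in Cd4 T cells was called, with Serpinb9 at 0.97 ± 0.21 (adjusted p = 0.316) and Hopx at 0.80 ± 0.18 (adjusted p = 0.37). The naive T cell genes Ccr7, Lef1 and Tcf7 stood at -0.12 ± 0.13 (adjusted p = 0.889), -0.31 ± 0.12 (adjusted p = 0.616) and -0.41 ± 0.13 (adjusted p = 0.582) on the log2 scale.

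In T cells with a Trdc UMI the groups separated with the ipilimumab mice lower, a difference from Cd4 T cells that was not tested. Their Ccl5 stood at 5178, 3591 and 4366 CPM in the IgG1 mice and 1029, 1898 and 1781 CPM in the ipilimumab mice. Nkg7 stood at 315, 271 and 415 CPM in the IgG1 mice and 166, 208 and 226 CPM in the ipilimumab mice, and Fasl at 105, 133 and 109 CPM in the IgG1 mice and 15.1, 37.5 and 51.5 CPM in the ipilimumab mice. All 3 genes were lower in each ipilimumab mouse (exact p = 0.1 each), 3 of the 4 genes with at least 20 UMIs, against 12.5% of 6192 genes that did not overlap there. Ccl5 was found in 63.2 ± 14.8% of cells in the IgG1 mice and 37.2 ± 12.2% in the ipilimumab mice, with 64.9 ± 7.22 UMIs per cell with a UMI in the IgG1 mice and 38.3 ± 6.94 in the ipilimumab mice. Nkg7 was found in 70 ± 21.1% of cells in the IgG1 mice and 43.6 ± 11.3% in the ipilimumab mice, with 4.55 ± 1.05 UMIs per cell with a UMI in the IgG1 mice and 4.24 ± 1.11 in the ipilimumab mice. Fasl was found in 41.6 ± 12.4% of cells in the IgG1 mice and 16.6 ± 7.83% in the ipilimumab mice, with 2.64 ± 0.0985 UMIs per cell with a UMI in the IgG1 mice and 1.83 ± 0.289 in the ipilimumab mice. Thinned to 2000 UMIs, the Fasl shares were closer, at 12.5 ± 9.76% in the IgG1 mice and 9.04 ± 8.20% in the ipilimumab mice. Thinned shares were 57.8 ± 15.2% and 32.0 ± 7.78% for Ccl5, and 42.7 ± 27.2% and 17.9 ± 9.30% for Nkg7, in the same order. Cells with 3 or more of the 7 genes made up 35.7, 38.1 and 53.3% in the IgG1 mice and 15.4, 22.2 and 24% in the ipilimumab mice (exact p = 0.1). The gate had 14, 21 and 15 cells in the IgG1 mice and 13, 27 and 25 in the ipilimumab mice, and Prf1 had 11 UMIs in all. No fit across all genes was made for these cells.

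The remaining T cells without a UMI of Cd4, Cd8a or Cd8b1 (1112 cells) had Gzma higher in each ipilimumab mouse than in any IgG1 mouse. Gzma stood at 47.7, 26.9 and 19.7 CPM in the IgG1 mice and 319.96, 202 and 107 CPM in the ipilimumab mice. Fasl stood at 35.9, 31.9 and 34.4 CPM in the IgG1 mice and 47.5, 56.6 and 41.1 CPM in the ipilimumab mice. Neither overlapped (exact p = 0.1 for each), 2 of 7 genes against 12.5% of 10728 genes. Gzma was found in 2.79 ± 0.634% of cells in the IgG1 mice and 6.81 ± 2.9% in the ipilimumab mice, with 10.1 ± 6.24 UMIs per cell with a UMI in the IgG1 mice and 23.4 ± 4.59 in the ipilimumab mice. Fasl was found in 14.7 ± 0.858% of cells in the IgG1 mice and 22.1 ± 5.46% in the ipilimumab mice, with 1.94 ± 0.189 UMIs per cell with a UMI in the IgG1 mice and 1.71 ± 0.195 in the ipilimumab mice.

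**Figure D5:**
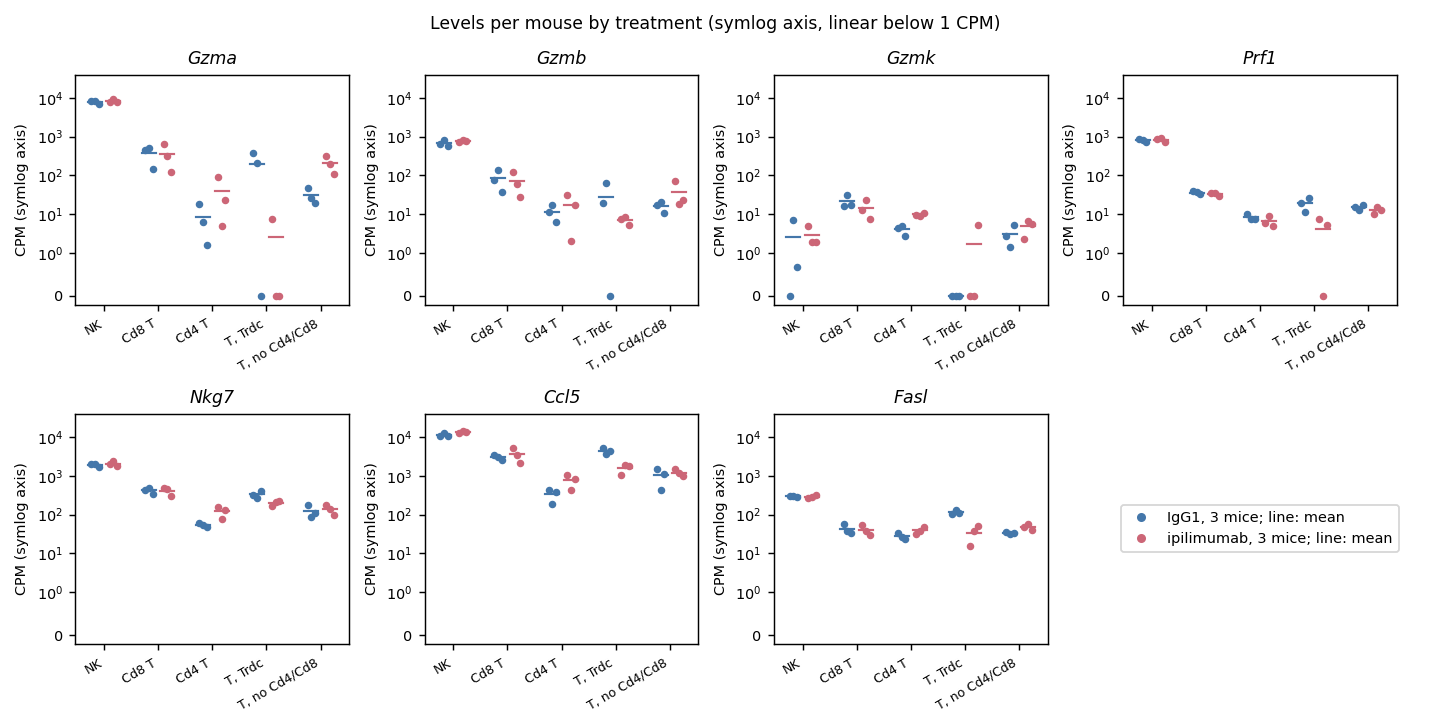
Level of each of the 7 genes (CPM, log axis that is linear below 1) by treatment in NK cells and 4 T cell gates, with 1 point per mouse and lines at the mean of 3 mice. With ipilimumab higher, groups separate for Ccl5 in NK cells, for Ccl5, Nkg7 and Gzmk in Cd4 T cells, and for Gzma and Fasl in T cells without Cd4 or Cd8. With ipilimumab lower, they separate for Ccl5, Nkg7 and Fasl in T cells with Trdc, and there for Prf1 too, from 11 UMIs. Of all genes counted, 9.39 to 12.5% separate in these gates.

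The genes whose mean levels over 17 gates were most like each of the 7 were taken from 8106 genes with at least 50 CPM in a gate. Pearson's r of log2(CPM + 10) is a description over gates that share libraries. Gzma was most like Gzmb (0.960), Eomes (0.953) and Prf1 (0.951). Gzmb was most like Gzma, Prf1 (0.946) and Eomes (0.934). Prf1 was most like Klra9 (0.962) and Klre1 (0.961), both NK cell receptor genes, and Eomes (0.955). Nkg7 was most like Tbx21 (0.979), Ctsw (0.972) and Fasl (0.971), and Fasl like Tbx21 (0.988), Nkg7 and Sytl3 (0.970). Ccl5 was most like Sla2 (0.954), Klrd1 (0.947) and Cd7 (0.901). Gzmk had no close partner, its highest values being those of Gm44174 (0.825), Rpa2 (0.823) and Slc25a40 (0.803).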

How the data were processed

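RNA of 6 lungs (3 IgG1 and 3 ipilimumab mice, 1 library each, 10x 3′ v3.1 chemistry) was counted by the authors with Cell Ranger against mm10. The processing notes name version 7.0.0, while the methods and a file header name others. The deposited matrices hold UMI counts per gene and barcode, unfiltered and not normalized, with depths of 37666042 to 48612412 UMIs. Cells were called here above a UMI threshold per library, or by a profile that differed from ambient barcodes at a false discovery rate of 0.01 (10000 simulations), and kept with at least 500 UMIs, at least 200 genes and at most 10% mitochondrial UMIs. High scores against simulated doublets were removed, at 0.8% per 1000 cells. A gate required UMIs of at least 2 of its marker genes, which held at least 75% of the UMIs of all markers. NK and T markers were left out of each other's total, and T cells with at least 2 NK markers were set aside. Counts were summed per mouse and gate and tested with the quasi-likelihood test of edgeR 4.0.16 (TMM, its default filter on low counts). Exact two-sided permutation tests over all splits of the mice were computed with NumPy. Software was Python 3.11.15, NumPy 2.4.6, pandas 2.3.3 and R 4.3.3, and the count fits were tested on simulated data with seeded changes. The 7 genes and all lists were chosen with earlier results of these data known. Genes named were the 7, members of the lists that were called with at most 2 others each, and the 3 genes most like each of the 7. The basophil gene Gzmc, the T cells with NK markers and the markers within dendritic cells were added after their values were seen. Some genes of these lists are not reported here. Alternatives were DESeq2 1.42.0, other scalings, no low-count filter, other cell calling, doublets kept, at least 3 markers, ambient RNA subtracted, a replicate block and each mouse left out. Counts of UMIs limit the precision of sparse genes such as Gzmk, and intervals and floors cover neither capture nor sampling of the lung.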

Additional observations from a re-analysis of the deposited data

Results flagged for a closer look

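Only NK and T cell gates with every ipilimumab mouse on 1 side of every IgG1 mouse are listed here. Among them the treatment difference in Ccl5 went in opposite directions. The mean level in ipilimumab mice minus that in IgG1 mice was 2515 CPM in NK cells, 1479 CPM in Cd4 T cells without Ccr7 or Lef1 and 215 CPM in Cd4 T cells with Foxp3, but -2809 CPM in T cells with Trdc. The difference between these gates was not tested. In Cd4 T cells with Foxp3 it rests on 22 cells with a UMI of Ccl5. Groups overlapped for Ccl5 in Cd8 T cells with and without Ccr7 or Lef1 and in Cd4 T cells with Ccr7 or Lef1. They also overlapped in T cells without Cd4 or Cd8 and in T cells with both.

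Fasl did the same. Groups overlapped for it in NK cells, Cd8 T cells with Ccr7 or Lef1, and Cd4 T cells without Ccr7 or Lef1 or with Foxp3. In the gates listed, the Fasl difference was 12.7 CPM in Cd4 T cells with Ccr7 or Lef1 and 14.3 CPM in T cells without Cd4 or Cd8. It was 20.9 CPM in T cells with both, -83.3 CPM in Cd8 T cells without Ccr7 or Lef1 and -80.8 CPM in T cells with Trdc. The difference between these gates was not tested either. In each gate the separation of 3 from 3 mice has an exact p of 0.1, and 9.39 to 12.5% of all genes separate so in the T cell gates where this was counted. It was not counted in the parts of the Cd4 T gate or in T cells with both Cd4 and Cd8.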

How the results depend on the processing

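All 98 alternatives for the 7 genes between NK and Cd8 T cells, and all 98 between Cd8 T cells without and with Ccr7 or Lef1, kept the direction and the call. Between Cd8 and Cd4 T cells 96 of 98 did, and Fasl became called without a low-count filter and without ipilimumab replicate 3. The number of genes called between treatments was less stable. DESeq2 called 20 genes in Cd4 T cells and 18 in all T cells. With no low-count filter edgeR called 35 genes in NK, 74 in Cd8 T, 221 in Cd4 T and 144 in all T cells, and 14 for the difference between NK and Cd8 T cells. That setting also called Nkg7, Ccl5, Gzma and Gzmk in Cd4 T cells (adjusted p = 9.00e-13, 4.86e-20, 8.73e-20 and 0.0437 by edgeR), and the cause was not tested. Gzma was called there though its treatment groups overlapped and its log2 fold change (2.27) was near that of the main fit. The p-values of this setting are therefore not read as a measure of the spread between mice. At least 3 markers gave 1 gene in NK cells. Leaving out 1 mouse gave 0 to 1 gene in NK cells, in Cd8 T cells and in the interaction, 0 to 10 in Cd4 T cells and 0 to 37 in all T cells.

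Whether replicate numbers pair the mice is not known, as the labels give only a number. Deviations of mice with the same number correlated between -0.104 and 0.0594, and those of mice with different numbers between -0.187 and 0.173. With 3 mice per group these values cannot decide it. With the replicate block edgeR called 2 genes in NK, 1 in Cd8 T, 4 in Cd4 T and 1 in all T cells, Ccl5 in Cd4 T cells among them (log2 fold change 1.19, adjusted p = 0.00652), and no other of the 7 genes.

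Directions near 0 turned. In NK cells, the log2 fold change of Fasl between treatments was 0.0277 with at least 3 markers. For Fasl in the interaction it was 0.00107 by DESeq2, 0.0113 with total UMIs, 0.0108 with no filter, 0.0194 with cells by the UMI threshold alone and 0.0509 with at least 3 markers. Over the mice left out in turn, values in NK cells ran from -0.0748 to 0.00765 for Fasl and -0.0209 to 0.16 for Prf1. For Cd8 T cells the values ran from -0.66 to 0.39 for Gzma, -0.85 to 0.36 for Gzmb, -0.13 to 0.17 for Nkg7, -0.0201 to 0.56 for Ccl5 and -0.27 to 0.22 for Fasl. Gzmb in Cd4 T cells ran from -0.19 to 1.06. In all T cells the ranges were -0.27 to 0.76 for Gzma, -0.57 to 0.58 for Gzmb, -0.38 to 0.21 for Gzmk, -0.0477 to 0.20 for Nkg7 and -0.00248 to 0.50 for Ccl5. In the interaction they were -0.31 to 0.79 for Gzma, -0.0498 to 0.99 for Gzmb, -0.0863 to 2.85 for Gzmk, -0.24 to 0.41 for Ccl5 and -0.23 to 0.25 for Fasl. The difference in the share of NK cells (ipilimumab minus IgG1, percentage points) ran from -0.565 to 1.29, and that of Cd8 T cells from -2.24 to 0.728. The cause of these turns was not tested. Gates of few cells, as those with Trdc or without Ccr7 and Lef1, and genes of few UMIs, as Gzmk, limit what 3 mice per group can show.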

Other observations

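The 41 T cells with UMIs of at least 2 NK marker genes, which entered neither the NK nor the Cd8 T comparison, had mean levels of Gzma, Prf1 and Ccl5 between those of NK and Cd8 T cells. Gzma stood there at 861, 2758 and 5212 CPM (lowest, median and highest of 6 mice) and Prf1 at 34.3, 157 and 515 CPM. Ccl5 stood at 4093, 10011 and 12167 CPM, and Gzmk at 0, 6.48 and 39.6 CPM. A mouse had at least 2 such cells, so 1 cell can set a value.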
